A study of Mus musculus with 6 samples.

Results

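Sorted Foxp3+ regulatory T (Treg) cells, which hold other immune cells in check, were profiled for the transcription factors that define the T helper lineages. The set comprises 9 genes, Tbx21, Gata3, Rora, Bcl6, Maf, Ahr, Runx1, Runx3 and Eomes. They were chosen by name, with earlier results of these data known. Of these, 8 carried a gene symbol in the annotation of the array, out of 19505 annotated symbols on 22206 probe sets, and Gata3 was not analysed here. Rora had 3 probe sets and each of the other 7 genes had 1, which gave 10 probe sets in all, and for Rora the brightest over the 6 arrays stood for the gene.

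The 6 Clariom S arrays, a 1-colour platform that gives a log2 signal per probe set, held 3 samples of Ube2m&Ube2f-deficient Treg cells and 3 samples of control Treg cells. Per the study, the deficient cells came from female mice that were Foxp3 Cre/wt and carried floxed alleles of both enzymes (Ube2m fl/fl and Ube2f fl/fl), and the control cells from Foxp3 Cre/wt mice, so that both groups carried the Foxp3-YFP-Cre allele on 1 X chromosome and kept a second set of Treg cells with an unmodified Foxp3 allele. Cre was driven by Foxp3, the factor that marks Treg cells, and CD4+YFP+ cells were sorted from spleen and peripheral lymph nodes. The mice were 8 to 12 weeks old and each sample pooled 2 to 3 of them, so p-values measure the spread between pools. Ube2m and Ube2f are the E2 enzymes that transfer the ubiquitin-like protein NEDD8 to cullins.

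A naive CD4 T cell becomes a helper cell of 1 type when a lineage factor is switched on. T-bet, encoded by Tbx21, and its relative Eomes drive Th1 and cytotoxic genes, GATA3 drives Th2 genes, the ROR factors drive Th17 genes together with AHR and c-MAF, and BCL6 drives follicular helper (Tfh) genes. RUNX1 and RUNX3 bind DNA with the partner CBFB in most T cells. Activated Treg cells use the same factors, and their subsets in tissue, gut and follicle are known for RORα, AHR, c-MAF or BCL6.

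The sequences of the RUNX genes are shown because this family is the pair of members compared with each other, and its distal promoters carry the same letters. RefSeq promoters of build GRCm38.p6, 250 bases before to 50 bases after a start site, were found for 7 of the 9 genes. Capitals mark ACCACA, the reverse complement of the RUNX letters TGTGGT.
Runx3, chr4:135120395-135120694, plus strand: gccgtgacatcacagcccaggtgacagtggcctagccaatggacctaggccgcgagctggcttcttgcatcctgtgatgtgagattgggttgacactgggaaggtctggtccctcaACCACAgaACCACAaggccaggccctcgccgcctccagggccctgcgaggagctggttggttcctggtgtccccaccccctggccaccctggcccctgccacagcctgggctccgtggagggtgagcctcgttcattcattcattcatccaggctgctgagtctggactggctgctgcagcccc
Runx1, chr16:92826025-92826324, minus strand: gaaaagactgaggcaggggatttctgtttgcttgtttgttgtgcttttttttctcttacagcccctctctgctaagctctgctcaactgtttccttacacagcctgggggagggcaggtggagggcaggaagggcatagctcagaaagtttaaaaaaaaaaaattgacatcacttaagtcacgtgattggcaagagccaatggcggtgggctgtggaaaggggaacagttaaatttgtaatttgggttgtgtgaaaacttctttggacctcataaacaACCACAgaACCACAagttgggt

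The longest run of bases shared by these windows was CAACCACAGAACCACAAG, of 18 bases, upstream of the start in Runx3 and just after it in Runx1. It was present, on either strand, in 4 of 32851 promoter windows, namely those of Runx1, Runx3, the third family member Runx2, and Gm16225, whose window overlaps that of Runx3 on the opposite strand. At least 1 match to TGTGGT on either strand was held by 16.8% of all windows, and 2 matches to ACCACA or 2 to TGTGGT that started within 20 bases of each other by 0.314%. These letters are a description of the windows and were not tested for binding.

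The promoters of Rora and Bcl6 are printed as those of 2 genes that fell, with capitals for the letters of a lineage factor. In Rora they mark CACGC, the reverse complement of the AHR core GCGTG, and in the downstream start of Bcl6 they mark TTCCTGGAA, a match to the BCL6 letters TTCCTNGAA.
Rora, chr9:68653536-68653835, plus strand: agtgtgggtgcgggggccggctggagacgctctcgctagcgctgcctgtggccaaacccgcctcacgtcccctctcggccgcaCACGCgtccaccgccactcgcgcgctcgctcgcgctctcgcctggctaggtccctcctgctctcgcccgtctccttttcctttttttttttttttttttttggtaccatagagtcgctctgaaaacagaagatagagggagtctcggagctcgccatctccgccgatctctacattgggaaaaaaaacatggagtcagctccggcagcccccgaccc
Bcl6, chr16:23981234-23981533, minus strand: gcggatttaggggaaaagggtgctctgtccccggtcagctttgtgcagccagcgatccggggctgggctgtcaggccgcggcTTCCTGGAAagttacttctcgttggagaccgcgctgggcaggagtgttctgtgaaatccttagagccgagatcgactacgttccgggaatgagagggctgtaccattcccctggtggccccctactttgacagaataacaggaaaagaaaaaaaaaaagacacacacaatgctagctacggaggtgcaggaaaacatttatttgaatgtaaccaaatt

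The AHR core, also found in the window of another start of Runx1, was present in 32.4% of all windows and the BCL6 letters in 1.59%. The window of the upstream start of Bcl6, not printed here, held no match to the BCL6 letters. The 10 windows of the 7 genes were also searched on both strands for the ROR letters AGGTCA, for the GATA letters AGATAA, for the T-box letters GGTGTGA and for the MAF letters TGCTGA. The first 3 of these had 0 matches, against 16.3%, 11.2% and 3.98% of all windows, and TGCTGA was found in the windows of Gata3 and Runx3, against 19.5% of all windows.

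The arrays were examined for their cells before the members. The titles name muscle while the other labels name sorted Treg cells, and all 8 measured muscle genes had a mean at or under the silent-gene reference of 5.62, the 95th percentile of 1091 olfactory receptor probe sets, while the mean of 9 T cell genes was 14.95 to 15.38 per array. At a limma adjusted p under 0.05, 2.27% of all probe sets were lower in deficient cells and 0.581% higher. Of 8 Treg genes, 2 fell, Ctla4 (-1.49, limma adjusted p = 0.00432) and Ikzf2 (-0.95, limma adjusted p = 0.0446), and 0 rose. The groups did not overlap for 4 lower and 2 higher genes, against 9.97% and 8.22% of all probe sets. The 2 higher were Il2ra (0.60, limma adjusted p = 0.135) and Gpr83 (0.69, limma adjusted p = 0.195), which did not pass. The list median was -0.52, with list means of 12.85 to 13.06 on deficient and 13.26 to 13.42 on control arrays. The part of these differences in the values of the members was not tested. The targeted gene Ube2f was 9.70, 9.72 and 9.82 in deficient Treg cells, against 11.91, 11.82 and 11.90 in control Treg cells, and the difference on the log2 scale was -2.13 (limma adjusted p = 0.000263). Differences are given as deficient minus control. No source used here places its probes relative to the deletion, and Ube2m was not analysed here. Of 43 measured genes of other cell types (CD8 T, B, NK, myeloid, dendritic, erythroid, platelet and muscle cells), 39 had a mean at or under the reference. Among the 43, Cd22 was the 1 gene with a limma call, which was lower in deficient cells, against the same 2.27% of all probe sets lower. Array medians ran from 4.89 to 5.11.

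Rora, Maf, Ahr and Bcl6 were lower in Ube2m&Ube2f-deficient Treg cells, and none of the 8 measured members rose. With limma over all probe sets and Benjamini-Hochberg adjustment, 4 of 8 members were lower at an adjusted p under 0.05, against 2.27% of all probe sets lower, 0.581% higher and 2.85% in either direction. The median log2 difference of the 8 members was -1.15, beside 0.02 over all probe sets. The deficient and the control values did not overlap for 5 of 8 members, all lower in deficient cells, against 9.97% of all probe sets lower and 8.22% higher. Because the members were chosen with earlier results known, these shares describe the set and are not a test of it. A bulk signal cannot tell fewer cells of a subset from less RNA per cell.

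**Figure D1:**
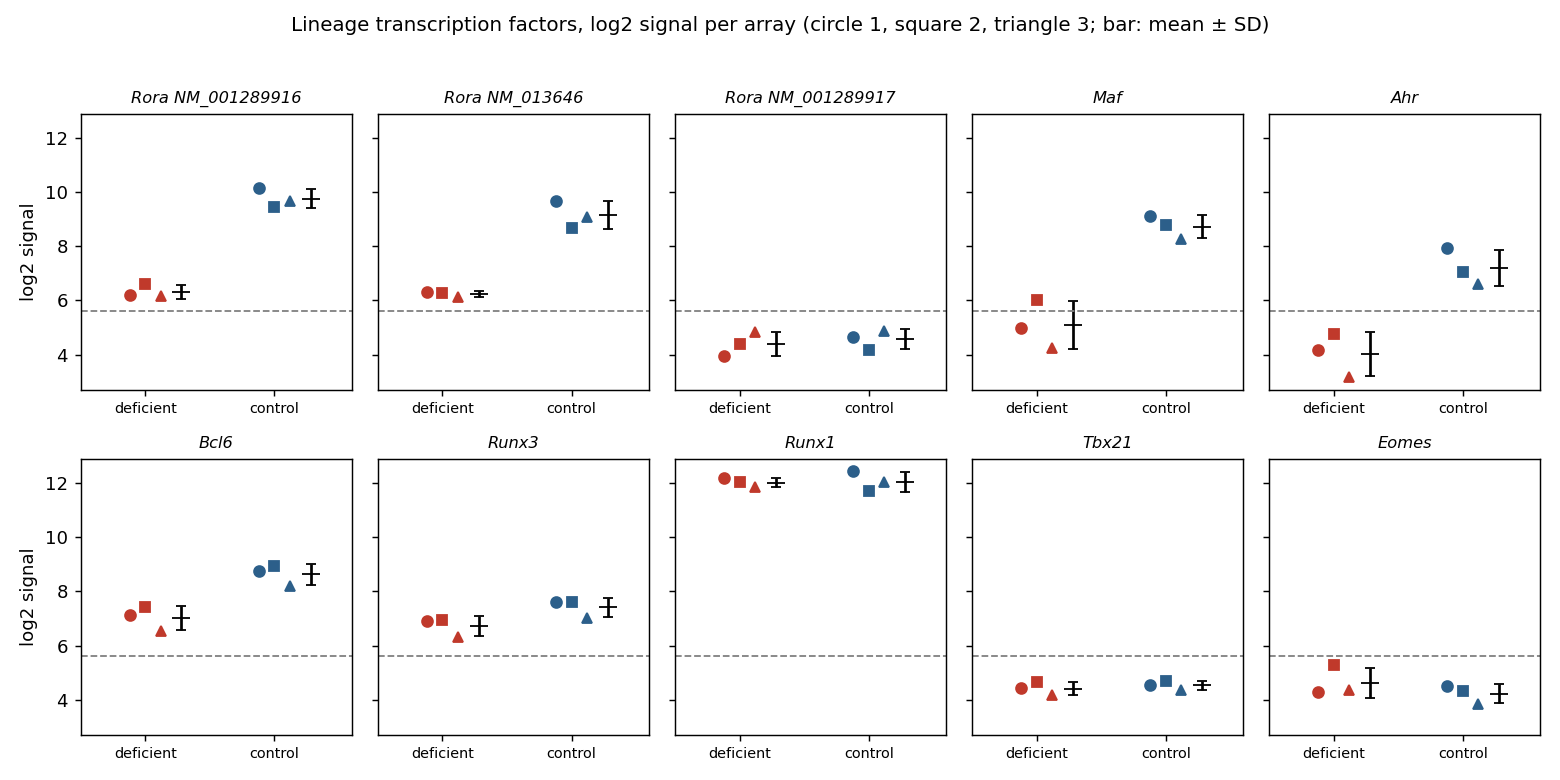
Log2 signal (vertical axis) of the 10 probe sets of the members on the 3 Ube2m&Ube2f-deficient arrays (red, left) and the 3 control arrays (blue, right), with array 1 as a circle, 2 as a square and 3 as a triangle, and the mean ± SD beside them. The dashed line is the silent-gene reference at 5.62, which the deficient means of Maf (5.09) and Ahr (4.03) fall under and which Tbx21, Eomes and the third Rora probe set do not exceed on any array.

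Rora, which encodes the nuclear receptor RORα of Th17 cells and of Treg cells in skin and muscle, was lower in every deficient sample. Its brightest probe set, annotated to the transcript NM_001289916, had a log2 signal of 6.19, 6.62 and 6.15 in deficient Treg cells, against 10.16, 9.45 and 9.66 in control Treg cells. The groups did not overlap, and the lowest control value lay 2.83 above the highest deficient value. The means were 6.32 ± 0.26 in deficient and 9.76 ± 0.36 in control cells (SD, n = 3 each), which differed by -3.44 (SE 0.238, 95% confidence interval -3.98 to -2.90), or 10.8-fold. The limma adjusted p was 0.000181, and it stayed between 3.12e-05 and 0.00248 in all alternatives for this probe set except the methods' t-test (0.0871). For this and each other member whose groups did not overlap, an exact permutation test (two-sided) could go no lower than p = 0.1, and that was its result.

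The 3 probe sets of Rora did not move alike. The one annotated to NM_013646 read 6.31, 6.28 and 6.13 in deficient cells and 9.68, 8.67 and 9.08 in control cells, a log2 difference of -2.90 (SE 0.258, limma adjusted p = 0.000549). Its groups did not overlap either. On deficient 3, both probe sets read below that array's own olfactory receptor percentile of 6.25. The one annotated to NM_001289917 read 3.95, 4.4 and 4.85 in deficient cells and 4.66, 4.19 and 4.89 in control cells, where the groups overlapped (-0.18, 95% confidence interval -0.81 to 0.45, limma adjusted p = 0.883). All 6 of its values were under the silent-gene reference, so it could show no fall at this level. The mean of the 3 probe sets gave -2.17 with a limma adjusted p of 0.00120.

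Maf, which encodes c-MAF, the driver of Il10 and of the Tfh and Th17 programmes, had the largest difference of the 8 members. Its log2 signal was 4.99, 6.02 and 4.26 in deficient Treg cells, against 9.13, 8.77 and 8.27 in control Treg cells. No deficient value reached the control range, but the deficient values were spread over 1.76 log2 units. With means of 5.09 ± 0.88 and 8.72 ± 0.43 (SD, n = 3 each), the difference was -3.63 with a standard error of 0.416 and a limma adjusted p of 0.00213. The deficient mean was under the silent-gene reference, so that the size, 12.4-fold, depends on that floor. The interval from -4.58 to -2.69 overlapped that of Rora, and the order of these 2 sizes is not settled.

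Ahr, which encodes the aryl hydrocarbon receptor, a sensor of dietary and microbial ligands that marks gut Treg cells, followed the same pattern. Its values were 4.17, 4.75 and 3.17 in deficient cells and 7.92, 7.04 and 6.62 in control cells. All 3 deficient values were under the silent-gene reference and all 3 control values above it. The means were 4.03 ± 0.80 and 7.19 ± 0.66 (SD, n = 3 each), and the difference was -3.16 (SE 0.436, 95% confidence interval -4.15 to -2.17, limma adjusted p = 0.00597). Its fold of 8.96 depends on the floor in the same way. The calls of Maf and Ahr were kept whichever array was left out, with adjusted p values up to 0.0185 for Maf and 0.0348 for Ahr.

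Bcl6, the repressor that directs Tfh and follicular Treg cells, fell by a smaller amount. It read 7.12, 7.41 and 6.54 in deficient cells and 8.76, 8.95 and 8.20 in control cells, all above the silent-gene reference. The groups did not overlap and lay 0.79 apart at their nearest values. Means of 7.02 ± 0.44 and 8.64 ± 0.39 (SD, n = 3 each) gave a difference of -1.61 (SE 0.281, 95% confidence interval -2.25 to -0.98), or 3.06-fold, with a limma adjusted p of 0.0186. The call ended without control 1 (0.0711), control 2 (0.0889), deficient 1 (0.0735) or deficient 3 (0.0515), whereas the direction was kept.

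Neither of the RUNX members passed the test. Runx3, which encodes the factor of CD8 T cells and Th1 cells, read 6.89, 6.96 and 6.30 in deficient cells and 7.60, 7.62 and 7.0 in control cells. The 3 deficient values lay just under the 3 control values, with 0.04 between the nearest, and the value on deficient 3 was close to that array's own olfactory receptor percentile of 6.25. The difference was -0.69 (SE 0.254, 95% confidence interval -1.27 to -0.11) with an unadjusted p of 0.0244 and a limma adjusted p of 0.273. At an unadjusted limma p under 0.05 with a fold over 1.5, the threshold that the study used, Runx3 counted as lower together with Rora, Maf, Ahr and Bcl6, so that 5 of 8 members were lower and 0 higher, against 5.82% of all probe sets lower and 3.24% higher. With the methods' t-test at that threshold the count was 4 of 8 (4.63% of all probe sets lower and 2.11% higher), without Runx3.

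Runx1, which encodes the factor that binds FOXP3 and works in all T cells, read 12.17, 12.02 and 11.85 in deficient cells and 12.43, 11.69 and 12.02 in control cells. Here the deficient values lay inside the control range. The difference was -0.03 with a 95% confidence interval from -0.54 to 0.48 and a limma adjusted p of 0.980, and its sign changed in 5 of 15 alternatives. Runx1 minus Runx3 differed between the groups by 0.66, that is Runx3 was lower relative to Runx1 in deficient cells, with an exact two-sided permutation p of 0.1, or 0.2 after adjustment over the 2 family pairs compared. An exact p of 0.1 is the smallest that 3 against 3 arrays allow here, so the test could not pass. The difference was 0.37 to 0.87 over the 9 alternatives run for it. Cbfb, the DNA-binding partner of both, read 12.16, 11.83 and 12.30 in deficient cells against 12.01, 11.83 and 11.99 in control cells (0.15, adjusted p = 0.845).

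**Figure D2:**
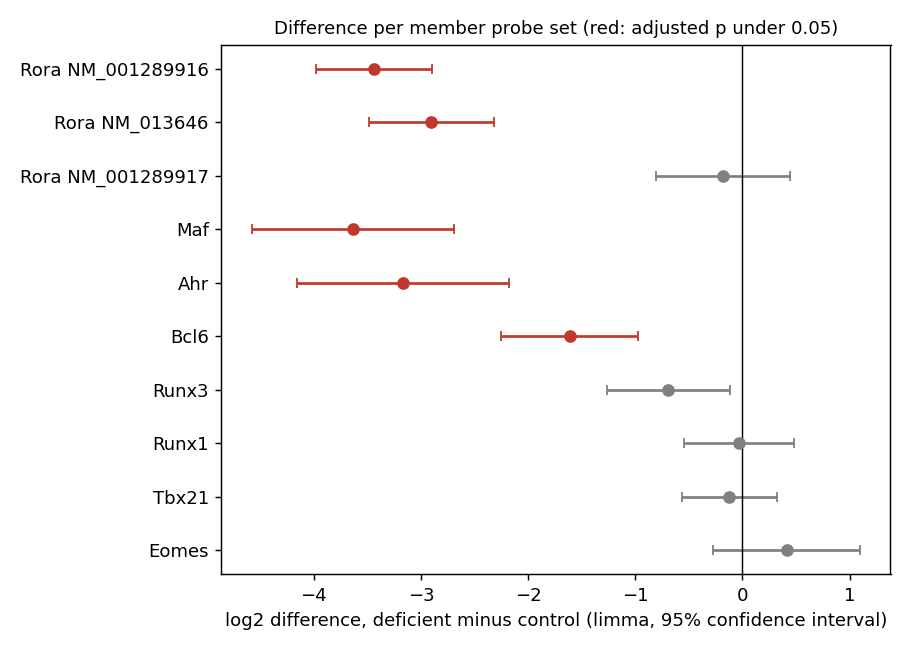
Log2 difference, deficient minus control, for each probe set of the members (points) with the 95% confidence interval of limma (bars). Points in red had an adjusted p under 0.05, namely Maf (-3.63), Rora (-3.44 and -2.90), Ahr (-3.16) and Bcl6 (-1.61), and the intervals of Runx1, Tbx21, Eomes and the third Rora probe set include 0.

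The T-box factors were not above the silent-gene reference on any array. Tbx21, which encodes the Th1 master factor T-bet, read 4.43, 4.64 and 4.18 in deficient cells and 4.56, 4.70 and 4.36 in control cells. The groups overlapped, and the difference was -0.12 (95% confidence interval -0.57 to 0.32, limma adjusted p = 0.890). Eomes, the factor of memory CD8 T cells and NK cells, read 4.28, 5.27 and 4.35 in deficient cells and 4.51, 4.32 and 3.83 in control cells. Deficient 2 stood above the other 5 arrays, and the groups overlapped (0.41, 95% confidence interval -0.27 to 1.10, limma adjusted p = 0.676). The Eomes value on deficient 2 was above that array's own olfactory receptor percentile of 5.05, although under the silent-gene reference. Tbx21 minus Eomes differed by -0.54 between the groups (exact two-sided permutation p = 0.2, also 0.2 after adjustment over the 2 pairs).

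Markers of NK cells, which express Eomes and T-bet, were highest on the same array. The mean of 5 measured NK genes was 4.36, 6.30 and 4.61 on deficient arrays 1 to 3, against 5.31, 3.97 and 4.40 on control arrays 1 to 3, and 4 of the 5 had a mean over the arrays at or under the silent-gene reference. Klrb1c, which encodes the receptor NK1.1, read 7.71 on deficient 2 and 6.98 on control 1, and 5.01 to 5.79 on the other 4 arrays. On deficient 2, Klre1 (6.51), Klrk1 (5.92) and Klri2 (5.78) also read above the silent-gene reference, and Ncr1 (5.59) read just under it. Without deficient 2 the difference of Eomes was 0.095, and the part of NK cell markers in its value was not tested.

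**Figure D3:**
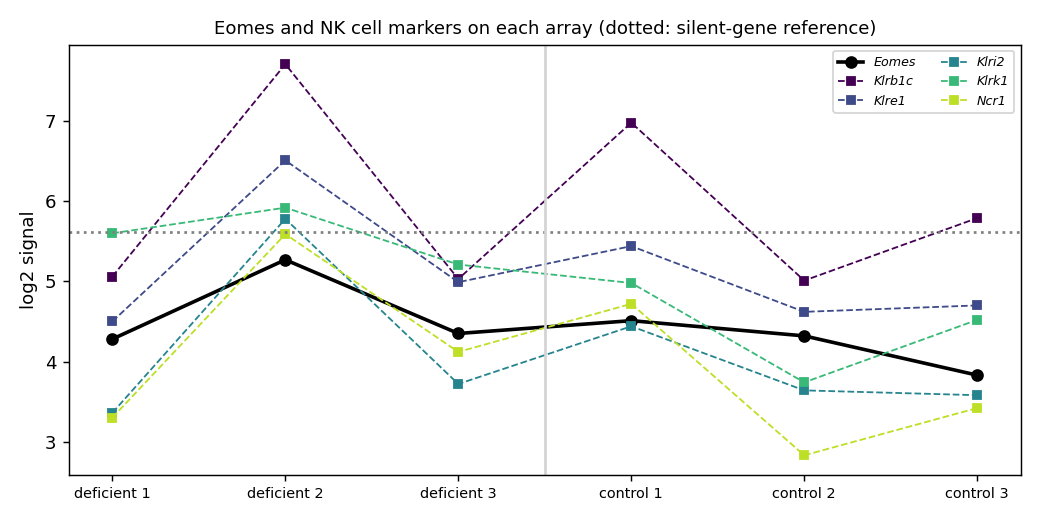
Log2 signal (vertical axis) of Eomes (black) and of the 5 measured NK cell markers (colours) on each of the 6 arrays, deficient arrays left and control arrays right, with lines joining the values of 1 gene. Eomes (5.27) and the 5 markers are highest on deficient 2, and the dotted line is the silent-gene reference at 5.62.

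Within each group the members ordered the arrays in much the same way. Among the deficient arrays, 7 of 8 members were highest on deficient 2 and 7 of 8 were lowest on deficient 3, against 34.1% and 34.0% of all probe sets. Among the control arrays, 6 of 8 were lowest on control 3, against 31.9%. The 95th percentile of the olfactory receptors ran in the opposite order, at 5.55, 5.05 and 6.25 on deficient arrays 1 to 3 and 4.79, 5.63 and 5.81 on control arrays 1 to 3. Its part in the order of the members was not tested, and without control 1 and deficient 2 together the same 4 members were lower.

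The patterns nearest to the members were sought over the 6 arrays by the root mean square distance after each probe set was centred on its own mean. The nearest of all annotated symbols to Maf was Ahr, at 0.31 log2 units (Pearson's r 0.99, a description over 6 arrays in 2 groups), and then Eea1, which encodes an early endosome protein, at 0.33. Eea1 was nearest to Ahr at 0.29, and Maf came next. Closest to Rora were Tspan31, a tetraspanin (0.16), and Icos, the co-stimulatory receptor (0.19), and closest to Bcl6 were Rilpl2 (0.12) and Egln3, an oxygen-sensing prolyl hydroxylase (0.14). These 5 genes all differed by -1.44 to -3.53 in the same fit, which follows from their choice by nearness to members that fell.

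Partners and relatives of the members were followed in a list of 24 genes, of which 19 were measured. Of these, 4 fell, 1 rose and 14 did not pass, against 2.27% of all probe sets lower and 0.581% higher. The list median was -0.02. Prdm1, which encodes BLIMP1, the antagonist of BCL6, had the lowest difference, with 4.70, 5.38 and 4.89 in deficient cells against 7.76, 7.79 and 8.11 in control cells (-2.90, SE 0.224, adjusted p = 0.000263). Thus the genes of BCL6 and of its antagonist both fell, and the deficient mean of Prdm1, 4.99, was under the silent-gene reference. Batf, the AP-1 factor of Th17 and Tfh cells, read 8.53, 8.64 and 8.84 in deficient cells against 11.11, 11.41 and 11.18 in control cells (-2.56, adjusted p = 0.000188). Id2, an inhibitor of E proteins, differed by -2.33 (adjusted p = 0.0281) and Irf4, the partner of BATF, by -1.47 (adjusted p = 0.0291). The last 2 calls ended without any 1 of the control arrays, deficient 1 or deficient 3, with adjusted p values up to 0.124 for Id2 and 0.128 for Irf4, and that of Id2 also ended with an intensity trend. Both also ended with the methods' t-test (adjusted p 0.292 and 0.252). The 1 rise was that of Lef1, a relative of TCF1 (1.0, adjusted p = 0.0329), named after its values were seen, and it was lost when any single array was left out. Arnt, the dimer partner of AHR, read 9.61, 10.11 and 9.53 in deficient cells against 9.86, 9.82 and 9.64 in control cells (-0.02, adjusted p = 0.985).

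Genes that the lineages are known by were counted in the same fit, in which 2.27% of all probe sets were lower and 0.581% higher. The lists, chosen with earlier results known, are described and not tested. At or under the silent-gene reference by mean were 4 of 13 Th1, 8 of 12 Th2 and 7 of 13 Th17 genes. The same held for 5 of 14 Tfh and 5 of 8 AHR genes. Genes at that level can show little fall, so the list medians cannot be ranked against each other. Of 13 measured Th1 genes, 5 fell and 0 rose with a median of -1.35, although Tbx21 itself was at the silent-gene level in both groups. The falls included Il18r1 (-4.05) and Il18rap (-3.06), the chains of the interleukin-18 receptor, the chemokine receptor Cxcr3 (-3.52) and Ifng, the Th1 cytokine (-2.47, adjusted p = 0.0127, and 0.0593 without control 3). Ifng read 4.81, 4.80 and 3.65 in deficient cells against 7.47, 6.20 and 7.01 in control cells, and so crossed the silent-gene reference. Of 12 measured Th2 genes, 3 fell and 0 rose, with a median of 0.045. These were the chemokine receptors Ccr4 (-5.01) and Ccr8 (-4.12) and the inhibitory receptor Cd200r1 (-2.45). The deficient means of Ccr4 (4.47), of Il18rap in the Th1 list (5.18), of Ccr6 in the Th17 list (4.51) and of Gpr55 in the AHR list (4.26) were under the silent-gene reference, so the sizes of their differences depend on that floor. Ccr4 and Ccr8 are also genes of activated Treg cells. The Th2 cytokines Il4, Il5 and Il13 did not pass (-0.81, 0.12 and 0.18) and were under the silent-gene reference on all 6 arrays, so they could show little change.

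Of 13 measured Th17 genes, 3 fell and 0 rose, with a median of -0.15. Ccr6, the receptor for CCL20, read 3.90, 5.13 and 4.50 in deficient cells against 8.71, 8.57 and 9.03 in control cells (-4.26, adjusted p = 0.000188). The other two, the interleukin-10 receptor chain Il10ra (-1.0, adjusted p = 0.0318) and the TGF-beta receptor Tgfbr1 (-0.94, adjusted p = 0.0451), are not particular to Th17 cells. With the methods' t-test both calls were lost (adjusted p 0.166 and 0.193), and 13 alternatives were counted beside it. The call of Il10ra was lost in 6 of these 13, the replicate block (0.0775) and the omission of any 1 control array, deficient 1 or deficient 3 (up to 0.127). That of Tgfbr1 was lost in 10 of 13, which were the omission of any single array (up to 0.152) or of control 1 and deficient 2 together (0.180), median centring (0.0650), quantile normalization (0.0598) and the replicate block (0.0971). The cytokines Il17a and Il17f did not pass (0.31 and 0.41) and were under the silent-gene reference on all 6 arrays.

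Of 14 measured Tfh genes, 4 fell and 0 rose, with a median of -0.37. Cxcr5, the follicle-homing receptor, read 6.35, 6.4 and 6.56 in deficient cells and 10.21, 10.20 and 10.36 in control cells (-3.82, SE 0.170, adjusted p = 3.42e-05). The groups lay far apart relative to their spread. Icos (-3.53) and the inhibitory receptor Pdcd1 (-3.42) fell as well, as did the adaptor Sh2d1a, which encodes SAP (-1.27, adjusted p = 0.00704, and 0.0506 without control 1 and deficient 2 together). The study counts Icos and Pdcd1 among genes of Treg cell function and Cxcr5 among molecules of migration, so they are not particular to Tfh cells. Those that did not pass included Btla (-0.08), Tox (-0.24), Il21 (-0.54), Cd200 (0.27) and Cxcl13 (1.32, with 8.35 on deficient 2).

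A list drawn around AHR held 8 measured genes, of which 3 fell, 1 rose and 4 did not pass, with a median of 0.21. Gpr15, a gut-homing receptor that AHR drives in T cells, read 5.46, 4.53 and 4.76 in deficient cells against 11.09, 9.77 and 10.78 in control cells (-5.63, adjusted p = 0.000131), with all deficient values under the silent-gene reference. Itgb8, an integrin chain that activates TGF-beta (-2.54, adjusted p = 0.00168), and the receptor Gpr55 (-1.71, adjusted p = 0.0180) also fell, and their place among AHR targets is less settled. The classical targets Cyp1a1, Cyp1b1 and Tiparp did not pass (0.20, 0.22 and 0.38), and the means of the first 2 were under the silent-gene reference. Nqo1, a target of both AHR and NRF2, rose to 4.54, 4.52 and 4.54 in deficient cells, against 3.45, 3.36 and 3.59 in control cells (1.07, adjusted p = 0.0114), all under the silent-gene reference. The call of Gpr55 ended without control 1, control 3, deficient 1 or deficient 3, that of Nqo1 without control 2 or deficient 1, and both without control 1 and deficient 2 together, with adjusted p values up to 0.0814 and 0.0721. Both also ended with the methods' t-test (adjusted p 0.231 and 0.0867).

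**Figure D4:**
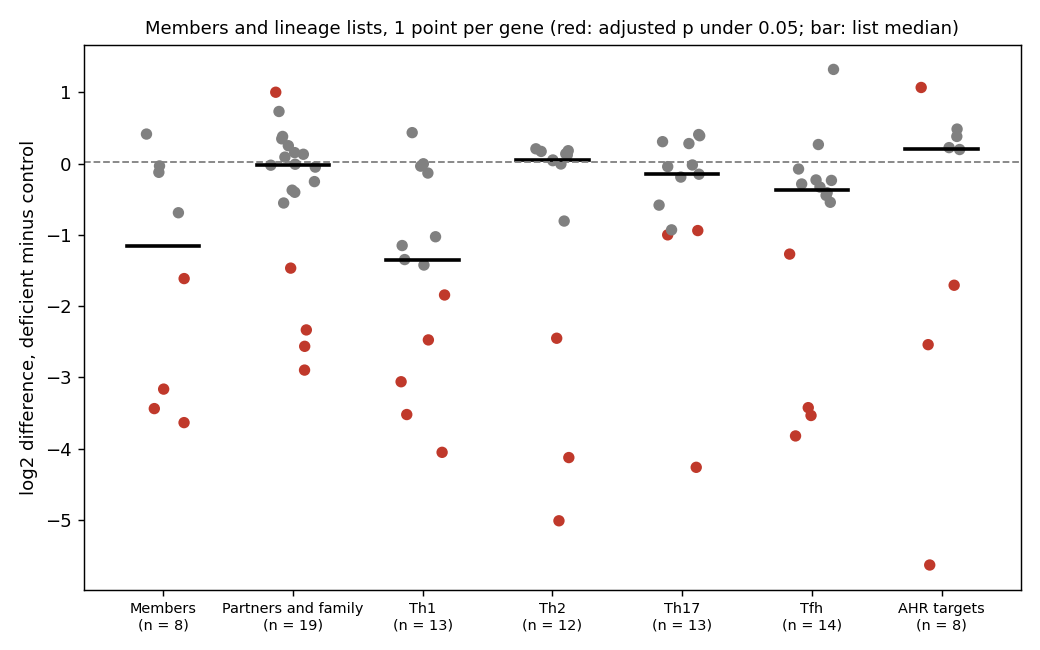
Log2 difference, deficient minus control (vertical axis), of each measured gene (points, red where the adjusted p was under 0.05) for the 8 members and the 6 lists, with the list median as a bar and the median of all probe sets, 0.02, as a dashed line. The medians run from -1.35 in the Th1 list to 0.21 in the AHR list. In those lists, 4 of 13 and 5 of 8 genes had a mean at or under the silent-gene reference.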

How the data were processed

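RNA of 6 sorted Treg samples was hybridised to Clariom S mouse arrays after pico amplification. The log2 signals were analysed as deposited, 1 value per probe set and array with 2 decimals, and per the labels the authors made them with Affymetrix Expression Console 1.4. No source used here states the summarisation method, log base or filters, and log2 was read from the range, 2.06 to 19.9. Genes were named from the platform annotation (19572 of 22206 probe sets with 1 symbol, 0 with several, 2634 unnamed here), and the brightest probe set stood for a symbol.

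The deficient arrays were set against the control arrays with limma 3.58.1 in R 4.3.3, by lmFit on group alone and eBayes, over all probe sets unfiltered, with Benjamini-Hochberg adjustment at 0.05. The fit was checked on simulated data, where it found most large differences but not small ones. A gene that did not pass may therefore still differ. Named were all members, for each list up to 4 genes that passed, taken by size of difference, and for each member that passed the 2 nearest symbols, while other genes were chosen after their values were seen. The members and lists were chosen with earlier results of these data known. The alternatives were an intensity trend with robust variance, array weights, quantile normalization, omission of the 40% dimmest probe sets, median centring, the methods' t-test, a replicate block, averaging the probe sets of each symbol, the threshold of the study, and omission of arrays. Promoters came from RefSeq, GRCm38.p6. The number of arrays limits the precision, and neither detection calls nor scan dates entered.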

Additional observations from a re-analysis of the deposited data

How the results depend on the processing

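Of the 120 member values recomputed, 107 kept direction and side of the threshold, 8 lost the call and 5 turned in sign. The sign of Runx1 turned with array weights (0.015), quantile normalization (0.032), without control 1 and deficient 2 together (0.155), without control 1 (0.16) and without deficient 3 (0.048), and over the arrays left out singly it ran from -0.21 to 0.16. With the methods' t-test after adjustment, 0 of 8 members were lower, against 4 at the threshold of the study, and the counts were 5 lower and 1 higher over all probe sets, 2 lower for the Tfh list and 0 for the calls of the partner, Th1, Th2, Th17 and AHR lists. Leaving out 1 array in turn gave 3 to 4 members lower, 269 to 431 probe sets lower and 46 to 81 higher, 2 to 4 partner genes lower and 0 higher, 4 to 6 Th1 genes, 1 to 2 Th17 genes, and 2 to 3 AHR genes lower with 0 to 1 higher. Without control 1 and deficient 2 together, 50 probe sets were higher, and 0 genes were higher in the partner and AHR lists. The partner list had 0 higher with median centring, and the AHR list 0 higher without the dimmest probe sets, which removed Nqo1. The cause of the other changes was not tested. Equal replicate numbers showed no steady correlation: deviations from the group means correlated at -0.06, -0.24 and 0.29 for equal numbers, and not every sample correlated best with its own number. Deviations of 3 arrays from their own mean depend on each other, so this check cannot decide whether the numbers pair the samples. With the replicate number as a block, 4 members were lower, 367 probe sets were lower and 70 higher, 1 Th17 gene was lower and 0 partner genes were higher. Values at the silent-gene level limit what Tbx21, Eomes, Maf, Ahr, Prdm1, Ifng, Il18rap, Ccr4, Ccr6, Gpr15, Gpr55 and Nqo1 can show.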
